A study of Sus scrofa with 15 samples.

Results

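The 10 genes described here encode enzymes of glycolysis and lactate formation: HK1, HK2, ALDOA, TPI1, GAPDH, PGK1, ENO1, PKM, LDHA and LDHB. They were chosen by gene symbol, and matched 11 of the 43294 features of a pig RNA-seq table, which held 28224 known genes and 15070 assembled transcripts without a gene name. LDHB matched 2 entries, of which the one at a partial copy on chromosome 2 was listed at 0 in all 15 libraries, so the entry on chromosome 5 was used. The question was whether GAPDH, which was lower in embryos after either of 2 treatments, moved together with the other enzymes of its pathway.

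The libraries fall into 5 groups of 3. PFF are primary pig fetal fibroblasts of passages 2 to 5, the cells whose nuclei were transferred. SCNT4c and SCNT8c are somatic cell nuclear transfer embryos, made by placing a PFF nucleus in an enucleated oocyte, and collected untreated at the 4-cell and the 8-cell stage. SCNT4c-KG are 4-cell embryos that were injected with KDM4A mRNA (1000 ng/µl, 5 h after activation), which encodes a demethylase of histone H3 lysine 9, and kept in 0.1 µM GSK126, an inhibitor of the methyltransferase EZH2, from 0 to 48 h. SCNT4c-TDG are 4-cell embryos made from PFF that were transfected with an inducible TDG vector and selected with puromycin, and exposed to doxycycline (500 ng/ml) from 40 to 72 h. TDG is the thymine DNA glycosylase, an enzyme of DNA demethylation. Each embryo library came from a pool of 30 embryos. No library with a mock injection, or with the vector or doxycycline alone, was analysed here, so these parts of each treatment cannot be told apart from the rest.

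Glycolysis splits glucose into pyruvate. Hexokinases trap glucose in the cell, aldolase cuts the 6-carbon sugar, triose phosphate isomerase interconverts the resulting trioses, and GAPDH, PGK1, enolase and pyruvate kinase carry out the steps that yield NADH and ATP. Lactate dehydrogenase then converts pyruvate and lactate into each other. The tetramers of this enzyme are built from LDHA and LDHB chains, and LDHB is the form usual in the oocyte and early embryo. The early embryo before genome activation takes up mainly pyruvate, and glucose use through glycolysis rises later, toward the blastocyst. GAPDH is widely used as a reference gene, and it was the internal control of the quantitative PCR in the study's methods.

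Values are the HTSeq count of a gene divided by a factor for its library, and are called normalized signal below. The reads behind them could be recovered as whole numbers. Recovered reads ranged from 22224949 to 22868038 in PFF, from 20460653 to 22530486 in SCNT4c, from 12354649 to 15390472 in SCNT4c-KG, from 17757929 to 19564459 in SCNT4c-TDG and from 18083559 to 19549670 in SCNT8c. Each agent was highest among the embryos in the group labelled as treated with it. KDM4A had a normalized signal of 1429 to 1476 in SCNT4c-KG and of 134 to 313 in SCNT4c, and TDG one of 49857 to 59944 in SCNT4c-TDG and of 939 to 2541 in SCNT4c. Each was also above SCNT4c in the other treatment, KDM4A at 555 to 918 in SCNT4c-TDG and TDG at 3886 to 4738 in SCNT4c-KG. The summed signal of 11 fibroblast markers with an entry was 3853941 to 4085804 in PFF and 4243 to 5457 in SCNT4c. COL5A1 was at 0 in every embryo group. The labels conflict for the 4-cell embryos. The sample descriptions of SCNT4c-KG carry the names of the columns used here as SCNT4c, while the table has other columns named for KG. The sample titles were followed, and every comparison of SCNT4c-KG with SCNT4c rests on that reading. The SCNT4c libraries are also numbered in conflicting ways, so these are called a, b and c. They name no sequencing batch, and nothing in them says that the pools of a group came from separate rounds of nuclear transfer, so p-values measure the spread between these pools only.

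The genes lie on 7 chromosomes of the build Sscrofa11.1. HK1 is on chromosome 14 (72383328 to 72460927, plus strand), HK2 on chromosome 3 (68155656 to 68231187, minus strand) and ALDOA also on chromosome 3 (18246036 to 18260167, plus strand). Chromosome 5 carries GAPDH (64129678 to 64135194, minus strand), TPI1 (63839473 to 63842853, minus strand) and LDHB (51810932 to 51831218, plus strand). PGK1 is on chromosome X (62187472 to 62210321, plus strand), ENO1 on chromosome 6 (69385879 to 69401664, minus strand), PKM on chromosome 7 (60971807 to 61032780, plus strand) and LDHA on chromosome 2 (40814163 to 40827284, minus strand). In GAPDH, 9.94% of the exon bases overlapped exons of IFFO1 or of the long noncoding RNA LOC110260753. The strand setting of the counting is not given in the sources used here, so reads of these overlaps cannot be assigned. LDHB had 1 near-identical copy elsewhere that covered 85.3% of its exon bases at 95% identity or more, and the other 9 genes had none.

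The sequence before the annotated start is shown for GAPDH, PGK1 and LDHA, because GAPDH was the member that fell and PGK1 and LDHA were those with the largest rises in SCNT4c-KG. Each is the 250 bases before the start of the gene in RefSeq on Sscrofa11.1, written 5′ to 3′ on the strand of the gene. Capitals mark the letters ACGTG, the core of the hypoxia response element, and GGGCGG, the GC box, on either strand (CACGT and CCGCCC when read from the other strand). These are matches of letters, not shown binding sites. Only the outermost annotated start of each gene was used, so a start further inside the gene was not examined.
GAPDH, chr5:64135195-64135444, minus strand: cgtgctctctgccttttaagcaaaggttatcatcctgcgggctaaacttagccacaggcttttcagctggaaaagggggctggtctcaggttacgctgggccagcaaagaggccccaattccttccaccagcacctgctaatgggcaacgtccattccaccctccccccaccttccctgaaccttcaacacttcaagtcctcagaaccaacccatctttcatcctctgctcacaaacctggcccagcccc
PGK1, chrX:62187222-62187471, plus strand: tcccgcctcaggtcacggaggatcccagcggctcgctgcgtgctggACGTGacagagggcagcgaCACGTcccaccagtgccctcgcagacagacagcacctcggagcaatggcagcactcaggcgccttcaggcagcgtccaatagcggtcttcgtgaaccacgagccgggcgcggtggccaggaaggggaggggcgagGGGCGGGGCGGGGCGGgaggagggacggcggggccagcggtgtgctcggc
LDHA, chr2:40827285-40827534, minus strand: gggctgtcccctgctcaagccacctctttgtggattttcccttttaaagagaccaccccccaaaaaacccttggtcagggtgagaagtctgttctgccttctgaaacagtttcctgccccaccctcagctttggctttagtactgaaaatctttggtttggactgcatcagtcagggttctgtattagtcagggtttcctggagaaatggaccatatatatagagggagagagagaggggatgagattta
PGK1 held 2 matches of ACGTG and 3 overlapping matches of GGGCGG, and the windows of GAPDH and LDHA held neither. Over the 10 genes, ACGTG was present in 6 windows, against 18.7% of 19556 promoters of the same length, and GGGCGG in 7, against 45.9%. The letters TATAAA were present in 1 member, HK2, against 9.77% of promoters. The window of GAPDH overlapped an exon of LOC110260753.

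**Figure D1:**
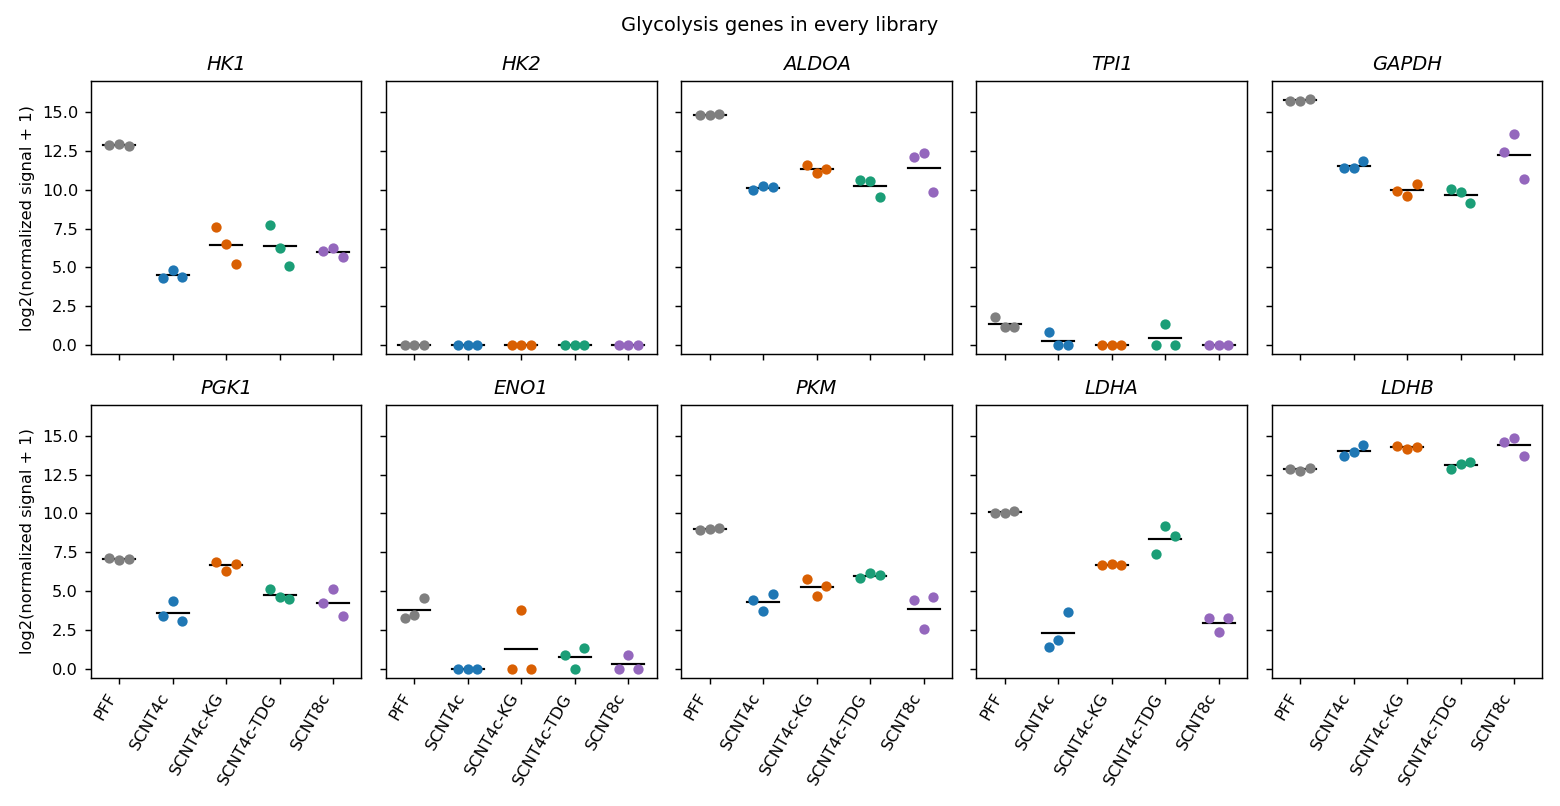
Normalized signal of the 10 glycolysis genes in every library, as log2(normalized signal + 1) on the vertical axis, with the 5 groups on the horizontal axis. Points are libraries and lines are group means. GAPDH lies lower in SCNT4c-KG and SCNT4c-TDG than in SCNT4c, LDHA, HK1 and PGK1 lie higher, and HK2 is at 0 throughout.

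Of the 10 genes, 7 (HK1, ALDOA, GAPDH, PGK1, PKM, LDHA and LDHB) had a mean of at least 10 over the 12 embryo libraries and were tested. LDHA passed this limit only through SCNT4c-KG and SCNT4c-TDG, so it had to differ between groups. It is therefore left out of the counts below and was tested in a fit with no minimum mean. ENO1, TPI1 and HK2 were under the limit and are given as values. Per kilobase of exon, LDHB was the highest member in SCNT4c at 12008 ± 3009 (SD, n = 3), followed by GAPDH at 645 ± 115 and ALDOA at 244 ± 22.2. PGK1 (6.84 ± 3.57) and HK1 (6.09 ± 1.23) did not differ beyond their spread, nor did PKM (2.65 ± 0.97) and LDHA (1.88 ± 1.97). In PFF the order was different, with GAPDH at 11713 ± 526 per kilobase, ALDOA at 6364 ± 130, LDHB at 5184 ± 342 and HK1 at 2092 ± 113.

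In SCNT4c-KG, GAPDH fell while PGK1 and HK1 rose, and PKM, LDHB and ALDOA did not pass the test. To pass, a gene needed more than a 2-fold change and a limma p below 0.05 after Benjamini-Hochberg adjustment over all 18942 features tested. Thus 2 of these 6 members were higher and 1 was lower, where 17.6% of all features were higher and 19.6% were lower. The 1 that was lower was GAPDH, whose fall set the question, so it is no result about the pathway. No other member of the 6 passed as lower. With edgeR and with DESeq2 the same genes passed, and ALDOA passed as higher too. No share of all features is given for these tools, and that of limma does not apply to them. For 3 of the 6 all SCNT4c-KG libraries were above all SCNT4c libraries (24.3% of all features). GAPDH was the 1 for which all were below (29.6%). The median log2 fold change over all features was -0.30.

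In SCNT4c-TDG, GAPDH again fell, and it was the 1 member of the 6 that passed the test as lower, against 17.6% of all features. As its fall set the question, this too is no result about the pathway. None of the 6 passed as higher in limma, against 15.7%. HK1 and PKM had an unadjusted limma p under 0.05. In edgeR HK1 passed as higher, and in DESeq2 both did, but no share of all features is given for these tools. Replicates did not overlap for 3 members that were higher (25.2% of all features) and for 2 that were lower, GAPDH and LDHB (33.2%). The median log2 fold change over all features was -0.26. Both treatments were compared with the same SCNT4c libraries, so the 2 comparisons are not independent.

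**Figure D2:**
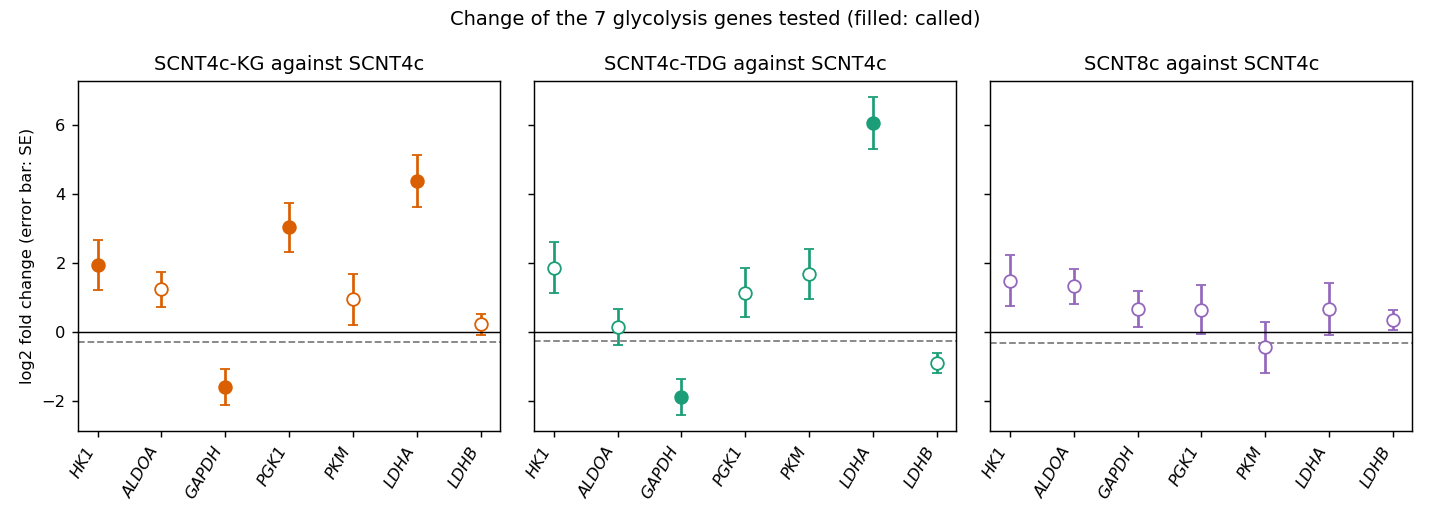
Log2 fold change on the log2(normalized signal + 1) scale of the 7 tested glycolysis genes in SCNT4c-KG, SCNT4c-TDG and SCNT8c against SCNT4c. Error bars are the limma standard error, filled points passed the test, and the dashed line is the median of all 18942 features. GAPDH lies at -1.60 and -1.89 in the treated embryos, where LDHA lies at 4.39 and 6.07. LDHA passed the filter only through the treated groups, so its filled points here are not counted as a result.

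GAPDH oxidizes glyceraldehyde 3-phosphate and forms NADH. Its normalized signal was 2709, 2748 and 3666 in SCNT4c a, b and c. It was 970, 778 and 1294 in SCNT4c-KG 1, 2 and 3, and 1054, 921 and 553 in SCNT4c-TDG 1, 2 and 3. All 6 treated libraries were thus below all 3 untreated libraries. The mean in SCNT4c was 3.0 times that in SCNT4c-KG and 3.61 times that in SCNT4c-TDG. On the log2 scale GAPDH fell by 1.60 ± 0.53 (SE; limma adjusted p = 0.0268) in SCNT4c-KG and by 1.89 ± 0.53 (limma adjusted p = 0.0126) in SCNT4c-TDG. The fall in SCNT4c-KG lost its call when SCNT4c a, b or c or SCNT4c-KG 1 or 2 was left out (adjusted p from 0.0538 to 0.0919), and that in SCNT4c-TDG did so without SCNT4c-TDG 3 (adjusted p = 0.0594). The shared spread of this fit included the 8-cell libraries, where GAPDH varied most. With each pair of groups fitted alone, the adjusted p was 0.000672 for SCNT4c-KG and 0.000216 for SCNT4c-TDG.

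Between the 2 treatments GAPDH differed by -0.29 ± 0.53 (SCNT4c-TDG minus SCNT4c-KG, 95% interval -1.41 to 0.84; limma adjusted p = 0.761), a difference that turned to 0.08 with the same total in each library. In SCNT8c its signal was 5479, 12122 and 1649, so 2 libraries were above and 1 was below all SCNT4c libraries. The difference from SCNT4c was 0.67 ± 0.53 (limma adjusted p = 0.415). PFF had 54513, 53238 and 58030, which was 18.2 times the mean of SCNT4c. On the log2 scale this difference was 3.88 with quantile normalization, 3.57 with the same total in each library, 3.43 with edgeR and 3.39 with DESeq2. These are bulk values per library, so fewer cells with a transcript and less of it in each cell cannot be told apart.

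The summed signal of markers of the donor cell and of the oocyte also differed between these groups. The summed signal of the fibroblast markers was 2637 to 3865 in SCNT4c-KG, 1785 to 2339 in SCNT4c-TDG and 2155 to 2438 in SCNT8c, each below the range of SCNT4c. The sum hides both directions. Of the 6 tested markers with a mean of at least 10 in every embryo group, 2 were higher and 3 lower in SCNT4c-KG. Of all features, 17.6% and 19.6% were. In SCNT4c-TDG 2 were lower (17.6% of all features), as in SCNT8c (3.16%). That of 12 oocyte and maternal genes was 102383 to 117940 in SCNT4c, 63015 to 94592 in SCNT4c-KG, 51683 to 56188 in SCNT4c-TDG and 44703 to 61616 in SCNT8c. Of 8 tested genes of this list, 2 were higher and 2 lower in SCNT4c-KG (17.6% and 19.6% of all features). In SCNT4c-TDG 1 was higher and 3 were lower (15.7% and 17.6%), and in SCNT8c 2 were lower (3.16%). BMP15, GDF9 and MOS were at 0 in every embryo group, and the list summed to 11.5 to 21.5 in PFF. The 9 cumulus genes with an entry summed to 4026 to 4123 in SCNT4c, 2101 to 5070 in SCNT4c-KG, 1692 to 3409 in SCNT4c-TDG and 3794 to 6082 in SCNT8c, with AMH, FOXL2 and PTX3 at 0. The part of these transcripts in the fall of GAPDH was not tested.

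LDHA, the chain that favours lactate formation, went the other way. It had 2, 3 and 14 reads in SCNT4c, a signal of 1.58, 2.62 and 11.6. In SCNT4c-KG the signal was 101, 104 and 99.7, and in SCNT4c-TDG it was 164, 578 and 371. The treated and untreated libraries did not overlap. In the fit with no minimum mean, LDHA rose by 4.39 on the log2 scale (limma adjusted p = 0.000639) in SCNT4c-KG and by 6.07 (limma adjusted p = 4.24e-05) in SCNT4c-TDG. The difference of 1.68 between the treatments did not pass the test in that fit (limma adjusted p = 0.198), but did with these 2 groups fitted alone (limma adjusted p = 0.012). SCNT8c had 8.40, 4.16 and 8.45, within the range of SCNT4c, and PFF had 1027 to 1149. An assembled transcript at the LDHA locus, with no other known gene, had a mean signal of 5.20 in SCNT4c and 35.9 in SCNT4c-KG. That transcript had 5.67 in SCNT4c-TDG, 2.11 in SCNT8c and 16.2 in PFF.

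LDHB, the other chain, was the most abundant member in every embryo group per kilobase. Its signal was 13349, 16002 and 21695 in SCNT4c, 20680, 17991 and 19630 in SCNT4c-KG, and 7341, 9431 and 10165 in SCNT4c-TDG. In SCNT4c-KG the values overlapped those of SCNT4c (0.22 ± 0.29, 95% interval -0.40 to 0.84; limma adjusted p = 0.579). All 3 SCNT4c-TDG libraries were below the other 4-cell libraries. The difference from SCNT4c was -0.91 ± 0.29 (limma adjusted p = 0.0265), which stayed under the limit of 2-fold, and that from SCNT4c-KG was -1.13 ± 0.29 (limma adjusted p = 0.0163). The latter lost its call without SCNT4c-KG 1 or SCNT4c-TDG 1 or 2 (adjusted p up to 0.0837), and the former passed 2-fold without SCNT4c a or SCNT4c-TDG 3. LDHB was the 1 member that passed the test between the treatments, as lower in SCNT4c-TDG, where 9.13% of all features were lower and 7.07% were higher.

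The direct comparison of the 2 treatments depended on the scaling and the tool. With the same total in each library, LDHB differed by -0.76 (limma adjusted p = 0.112), and with quantile normalization by -0.48 (limma adjusted p = 0.333). The call was also lost in edgeR (-0.95, adjusted p = 0.0598) and in DESeq2 (-0.98, under 2-fold), where PGK1 was the 1 member called lower (-1.81, adjusted p = 0.0444). Of the 6 members, replicates did not overlap for 1 that was higher in SCNT4c-TDG than in SCNT4c-KG (PKM; 19.8% of all features) and for 3 that were lower (PGK1, LDHB and ALDOA; 24.6%).

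The ratio of LDHA to LDHB was taken within each library, after 1 was added to both signals. Per kilobase of exon, the log2 ratio was -12.7 ± 0.86 (SD, n = 3) in SCNT4c, -8.54 ± 0.13 in SCNT4c-KG, -5.74 ± 0.72 in SCNT4c-TDG, -12.4 ± 0.99 in SCNT8c and -3.76 ± 0.04 in PFF. As LDHA had few reads in SCNT4c, the size of the difference depended on the added value. With 10 in place of 1 the log2 difference from SCNT4c went from 4.17 to 2.71 in SCNT4c-KG and from 6.97 to 5.44 in SCNT4c-TDG. In all 6 treated libraries the ratio was above that of every untreated library of either stage, and below that of every PFF library. The exact two-sided permutation p was 0.1 for each treatment, the smallest that 3 against 3 libraries allow (adjusted p = 0.2 over 8 tests). Per kilobase, LDHB was the more abundant of the 2 transcripts in all 15 libraries.

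**Figure D3:**
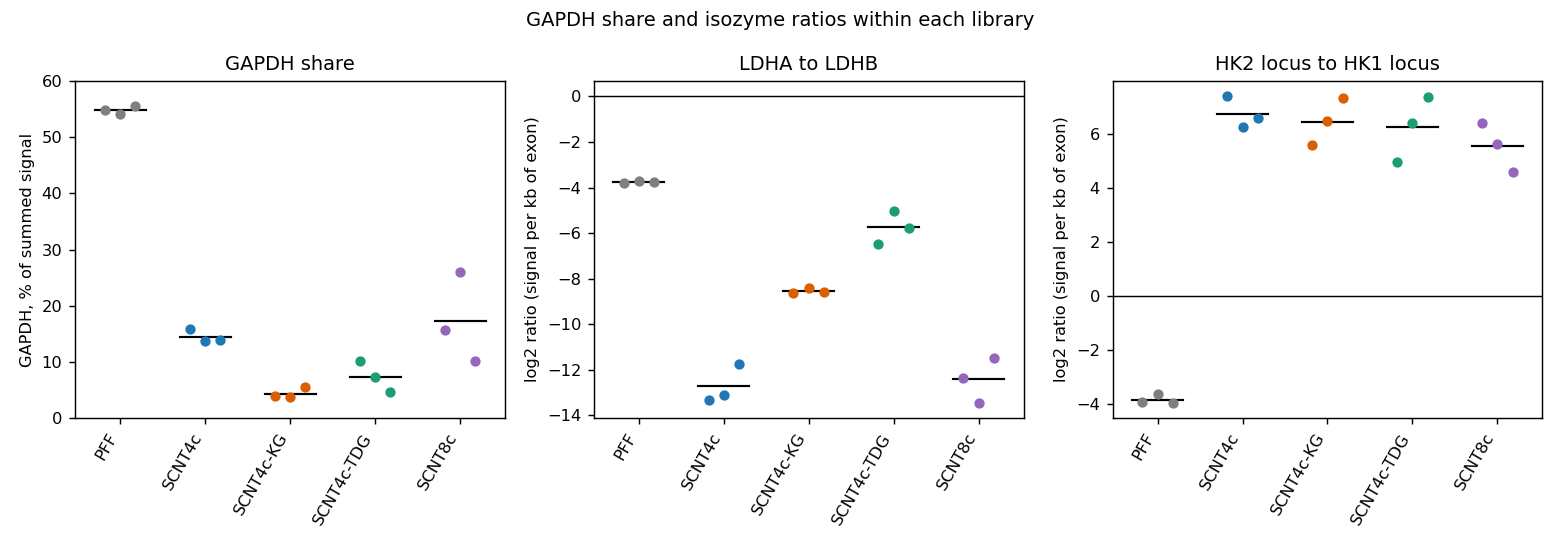
The left panel gives GAPDH as a percent of the summed signal of the 10 genes, the middle panel the log2 ratio of LDHA to LDHB, and the right panel the log2 ratio of the HK2 locus to the HK1 locus, both per kilobase of exon. Points are libraries and lines are group means. The GAPDH share is at most 10.1% in the treated 4-cell embryos and at least 13.7% in SCNT4c, and the LDHA to LDHB ratio rises from -12.7 in SCNT4c to -8.54 and -5.74.

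HK1, the hexokinase of most tissues, had a signal of 18.9, 27.1 and 19.9 in SCNT4c. Its values were 189, 91.4 and 37.0 in SCNT4c-KG and 215, 75.9 and 32.9 in SCNT4c-TDG. Each treated library was above all untreated 4-cell libraries, but the replicates within each treatment were far apart. HK1 was higher by 1.95 ± 0.74 on the log2 scale (limma adjusted p = 0.049) in SCNT4c-KG and 1.86 ± 0.74 (limma adjusted p = 0.0635) in SCNT4c-TDG, and the first lost its call when SCNT4c a, b or c, SCNT4c-KG 1 or 2, SCNT4c-TDG 2 or SCNT8c 1 was left out (adjusted p up to 0.192). It also lost its call with no minimum mean (adjusted p = 0.0705) and with the same total in each library (adjusted p = 0.0568). The second passed without SCNT4c-KG 3, SCNT4c-TDG 3 or SCNT8c 3, and in 7 of 11 settings that left out no library, among them both other scalings, edgeR and DESeq2 (limma adjusted p = 0.0359 with the 2 groups alone). In SCNT8c HK1 had 66.3, 74.0 and 50.7, also above all SCNT4c libraries, but the log2 difference of 1.49 ± 0.74 did not pass the test (limma adjusted p = 0.194). HK1 was the single member whose SCNT8c and SCNT4c libraries did not overlap, where 9.24% of all features were higher in this way.

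HK2, the hexokinase of muscle and of many dividing cells, was listed at 0 in all 15 libraries. The table held 1 assembled transcript at its locus, where HK2 was the only known gene. This transcript had a signal of 2901, 1842 and 1905 in SCNT4c, 7960, 7104 and 6845 in SCNT4c-KG, and 5831, 6111 and 5222 in SCNT4c-TDG. It was 1.75 ± 0.33 higher on the log2 scale (limma adjusted p = 0.00091) in SCNT4c-KG and 1.40 ± 0.33 higher (limma adjusted p = 0.00479) in SCNT4c-TDG, with all treated above all untreated libraries. SCNT8c had 5080, 3427 and 1794, which overlapped SCNT4c, and PFF had 404 to 560. Whether its reads were those of HK2 was not tested. Taking them as such, the log2 ratio of the HK2 locus to the HK1 locus was 6.75 ± 0.59 in SCNT4c, 6.47 ± 0.86 in SCNT4c-KG, 6.25 ± 1.22 in SCNT4c-TDG and 5.55 ± 0.91 in SCNT8c, and these overlapped. PFF, at -3.83 ± 0.18, was below all embryo libraries. The exact two-sided permutation p was 0.7, 0.6, 0.2 and 0.1 for these groups against SCNT4c.

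ALDOA, the aldolase of muscle and most other tissues, had a signal of 991, 1184 and 1137 in SCNT4c and of 3120, 2151 and 2616 in SCNT4c-KG. The 2 groups did not overlap, but the log2 fold change of 1.24 ± 0.51 did not pass the test (limma adjusted p = 0.0695). With these 2 groups fitted alone the adjusted p was 0.0016, and edgeR and DESeq2 on the recovered reads gave 0.0471 and 0.0231. It also passed without SCNT8c 2 or 3. In SCNT4c-TDG the values 1589, 1512 and 740 lay on both sides of SCNT4c (0.14 ± 0.51, 95% interval -0.96 to 1.24; limma adjusted p = 0.858). SCNT8c had 4382, 5225 and 920. The library with the low value, SCNT8c 3, was also the lowest of SCNT8c for GAPDH, LDHB, HK1 and PGK1. TPI1, the isomerase of the next step, had at most 2 reads in any library for its entry (signal of at most 2.44), and no fold change is given. An assembled transcript at its locus, where TPI1 was the only known gene, had a mean signal of 5.58 in SCNT4c and 21.2 in SCNT4c-KG. That transcript had 7.82 in SCNT4c-TDG, 12.5 in SCNT8c and 32.2 in PFF. Whether its reads were those of TPI1 was not tested.

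PGK1 makes the first ATP of the pathway and had a signal of 9.46, 19.2 and 7.47 in SCNT4c. In SCNT4c-KG the signal was 118, 76.1 and 108, and in SCNT4c-TDG 33.4, 23.8 and 21.4. Both treatments were above all SCNT4c libraries, and the log2 difference was 3.04 ± 0.71 (limma adjusted p = 0.00387) in SCNT4c-KG and 1.14 ± 0.71 (limma adjusted p = 0.228) in SCNT4c-TDG. An assembled transcript at the locus, where the table placed 6 known genes, had a mean signal of 2868 in SCNT4c, 5621 in SCNT4c-KG, 8264 in SCNT4c-TDG and 8.98 in PFF. Summed with it, the log2 fold change of PGK1 in SCNT4c-KG was 0.98 and no longer above 2-fold, that in SCNT4c-TDG was 1.56 and passed the test (limma adjusted p = 0.00312), and PGK1 turned from higher to lower in PFF than in SCNT4c. The reads of that transcript cannot be assigned to 1 gene.

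ENO1, the common enolase, was at 0 in all 3 SCNT4c libraries. In SCNT4c-KG it was at 0, 12.7 and 0, in SCNT4c-TDG at 0.84, 0 and 1.53, in SCNT8c at 0, 0.83 and 0, and in PFF at 8.55, 10.2 and 22.6. PKM, the pyruvate kinase of most tissues, had 20.5, 12.2 and 26.6 in SCNT4c, 53.9, 24.1 and 39.9 in SCNT4c-KG and 56.0, 69.0 and 64.3 in SCNT4c-TDG. All SCNT4c-TDG libraries, but not all SCNT4c-KG libraries, were above those of SCNT4c. The log2 fold change there was 1.68 ± 0.74 (limma adjusted p = 0.0891), and in SCNT4c-KG it was 0.95 ± 0.74 (limma adjusted p = 0.321). The first passed without SCNT8c 2, and in 5 of 10 settings that left out no library, among them quantile normalization (limma adjusted p = 0.0303) and the same total in each library (limma adjusted p = 0.0497), but not in edgeR. The entries of TPI1 and HK2 were at or near 0 in fibroblasts too, and that of ENO1 was at most 22.6 there. The cause of these low values was not tested.

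Relative to the other members, GAPDH stood lower after both treatments. GAPDH made up 13.7 to 15.8% of the summed signal of the 10 genes in SCNT4c, 3.66 to 5.43% in SCNT4c-KG and 4.63 to 10.1% in SCNT4c-TDG. Its log2 value minus the mean of the other 9 was 7.10 to 7.34 in SCNT4c, 3.70 to 4.82 in SCNT4c-KG and 3.75 to 4.44 in SCNT4c-TDG. It was 6.19 to 8.64 in SCNT8c and 7.77 to 7.79 in PFF. The other 9 include LDHA, which reached a mean of 10 only in the treated groups, so its rise is part of this difference. The 10 genes together had a summed signal, per 1000000 of the library total, of 962 to 1433 in SCNT4c, 1087 to 1323 in SCNT4c-KG and 704 to 840 in SCNT4c-TDG, and LDHB alone made up 70.2 to 85.1% of their sum in these libraries. Per kilobase, ALDOA (581 ± 107) was above GAPDH (215 ± 55.3) in SCNT4c-KG, where GAPDH was above ALDOA in SCNT4c. These are descriptions and were not tested.

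No member passed the test between SCNT8c and SCNT4c, where 2.62% of all features were higher and 3.16% were lower in limma. The unadjusted limma p was under 0.05 for 1 member, ALDOA. No share of all features is given for the settings that follow. With edgeR and with DESeq2, ALDOA was higher, and without SCNT8c 3 both GAPDH and ALDOA were higher. Without that library PGK1 and ALDOA also passed as lower in SCNT4c-TDG than in SCNT4c-KG. The median log2 fold change over all features was -0.31. Between PFF and SCNT4c, fitted alone over 19287 features, 5 of the 6 members were higher in PFF (38.5% of all features) and LDHB was lower (39.7%). The log2 differences of the 5 ranged from 3.45 for PGK1 to 8.38 for HK1, and that of LDHB was -1.18 ± 0.18 (limma adjusted p = 0.00109). Their replicates did not overlap, which held for 42.1% and 42.4% of all features in the 2 directions. With edgeR, DESeq2 or the same total in each library the 5 differences were smaller and that of LDHB was larger in size (-1.97, -2.01 and -1.81). With quantile normalization those of PGK1 (4.67), PKM (5.31) and HK1 (9.07) were larger and those of GAPDH (3.88) and ALDOA (4.17) smaller. Every call was kept under these settings. Without SCNT4c c, LDHB no longer passed in this comparison.

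The genes whose pattern over the 12 embryo libraries was most like that of GAPDH were not glycolysis genes. Among 6286 known genes with a mean of at least 100, the root mean square difference of centred log2 values was 0.36 for KDELC1, an endoplasmic reticulum glucosyltransferase, 0.43 for PRDX3, a mitochondrial peroxidase, 0.44 for LOC106504299 and for SUMF1, which activates sulfatases, and 0.45 for TAX1BP3, a PDZ domain protein. LDHB ranked 744, ALDOA 1375 and LDHA 6180 on this measure. Over the 9 libraries of SCNT4c, SCNT4c-KG and SCNT4c-TDG alone, KDELC1 ranked 10 and the other 4 between 69 and 289. LDHB ranked 1727, ALDOA 3400 and LDHA 6188 there, and the genes closest to GAPDH in that ranking are not given here.

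Other genes of glucose use changed in both directions. Of 52 tested in 7 lists, 9 did not reach a mean of 10 in every embryo group and, like LDHA, are left out of the counts, while the shares of all features include such features. Of the other 43, 6 were higher and 9 lower in SCNT4c-KG (17.6% and 19.6% of all features), and 5 were higher and 13 lower in SCNT4c-TDG (15.7% and 17.6%). In SCNT8c 4 were higher and 1 was lower (2.62% and 3.16%). The list of isozymes and further enzymes of glycolysis had 1 higher and 4 lower of 11 in each treatment. Its median log2 fold change over all 15 tested genes was -0.50 in SCNT4c-KG and -1.54 in SCNT4c-TDG. Medians over all features were -0.30 and -0.26. Of the 15, 4 did not reach a mean of 10 in every embryo group, and the shift was not tested. LDHC, the lactate dehydrogenase chain known from germ cells, fell from 2522 ± 77 (SD, n = 3) in SCNT4c to 399 ± 54.5 in SCNT4c-KG and 540 ± 129 in SCNT4c-TDG, opposite to LDHA. It was also lower in untreated SCNT8c, at 624 ± 701 (log2 difference -2.63, limma adjusted p = 0.0239), where all libraries were below those of SCNT4c. ADPGK, a kinase that uses ADP to phosphorylate glucose, fell from 10280 ± 2627 to 1537 ± 135 and 2261 ± 252. PFKM, the muscle phosphofructokinase, was named after its values were seen, as the other gene of this list that fell in both treatments, from 869 ± 127 to 222 ± 94.1 and 187 ± 29.4. ALDOC, the brain aldolase, fell in SCNT4c-TDG (1707 ± 347 to 302 ± 136). PGAM1, the mutase between PGK1 and enolase, rose from 622 ± 191 to 1515 ± 352 in SCNT4c-KG and to 3626 ± 838 in SCNT4c-TDG.

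Of 11 genes of pyruvate use, 3 were higher and 2 lower in SCNT4c-KG (17.6% and 19.6% of all features), and 3 higher and 1 lower in SCNT4c-TDG (15.7% and 17.6%). DLD, a subunit of the pyruvate dehydrogenase complex and of related complexes, rose from 48.4 ± 25.7 in SCNT4c to 477 ± 146 and 1013 ± 118, and was also higher in SCNT8c, at 173 ± 13.8 (limma adjusted p = 0.0254). PDP1, a phosphatase that activates pyruvate dehydrogenase, rose from 127 ± 19.4 to 979 ± 223 in SCNT4c-TDG. Of 5 tested regulators that reached a mean of 10 in every embryo group, 0 were higher and 3 lower in SCNT4c-KG (17.6% and 19.6%). In SCNT4c-TDG 1 was higher and 2 were lower (15.7% and 17.6%). Among them EPAS1, a hypoxia-inducible factor, fell from 434 ± 80.8 to 81.5 ± 30.8 and 68.7 ± 18.9. EGLN1, a prolyl hydroxylase that acts on these factors, rose from 58.6 ± 28.5 to 303 ± 64.8 in SCNT4c-TDG.

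**Figure D4:**
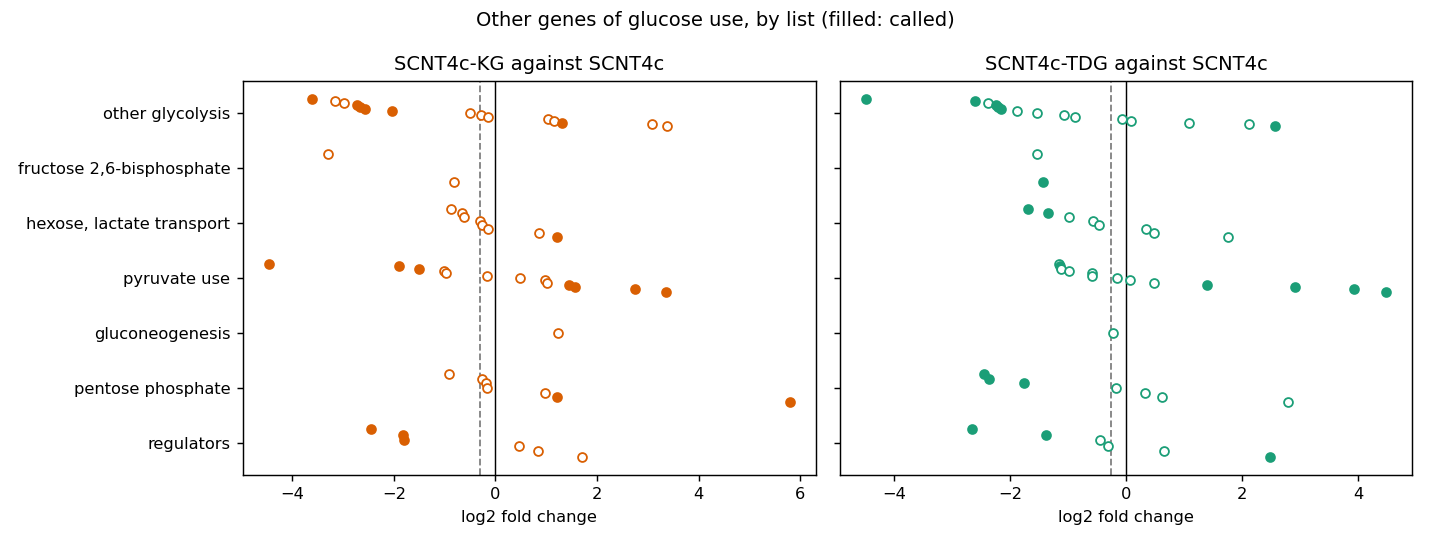
Log2 fold change of the 52 tested genes of 7 lists in SCNT4c-KG and SCNT4c-TDG against SCNT4c, 1 point per gene, filled where the test was passed. The dashed line is the median of all features. In the list of other glycolysis enzymes, 5 filled points lie below 0 and 1 lies above it in each panel, and 1 of the 5 is a gene that did not reach a mean of 10 in every embryo group.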

How the data were processed

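The deposited values are a normalized signal. According to the labels and methods, the authors' tools were Trimmomatic 0.39 for trimming, STAR 2.5.3a for alignment to the build Sscrofa11.1, StringTie 2.1.2 for assembly and HTSeq 0.9.1 for counting. Each value divided by that of 1 read gave a whole number (tolerance 0.01), so the reads were recovered. The source of the dividing factor was not tested. Of 43535 entries, 241 with a repeated ID were removed.

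Values were used as log2(value + 1), which understates the fold change of low genes. Features whose mean reached 10 entered limma 3.58.1 (empirical Bayes with trend), fitted over the 12 embryo libraries together, and PFF with SCNT4c alone. The design assumed normalized values, and the count tools edgeR 4.0.16 and DESeq2 1.42.0 (R 4.3.3) on recovered reads are alternatives. Tested on simulated reads of SCNT4c-KG and SCNT4c, where far fewer genes changed than in the data, limma and edgeR made few wrong calls and DESeq2 made many, so calls by DESeq2 alone carry less weight. Copies were searched with blastn 2.17.0 (95% identity, at least 150 bases). Isozyme ratios were compared by exact permutation (scipy 1.17.1).

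The members, lists and tests were chosen with earlier results of these data known. All 10 members are named. Of the other lists, up to 6 genes a treatment are named by size of change, among those that passed and reached a mean of 100 in 1 of the groups; 1 of these is not reported here. The 5 genes most like GAPDH are named. Alternatives were other pseudocounts, filters, scalings, count tools, each library left out, 2 groups fitted alone, a replicate block and the sum with the assembled transcripts of a locus.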

Additional observations from a re-analysis of the deposited data

How the results depend on the processing

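Of 768 recomputed log2 fold changes of members, 684 kept their direction and their side of the test, 44 gained and 25 lost a call, and 15 reversed. No cause of these changes was tested. GAPDH kept its call in both treatments under all 11 settings that left out no library, with a log2 change of -1.69 to -1.43 in SCNT4c-KG and -1.89 to -1.56 in SCNT4c-TDG. With 1 library left out, it ranged from -1.79 to -1.43 and from -2.08 to -1.61. The counts from here to the end of the next paragraph include LDHA, which passed the filter only through the treated groups. It was called in both treatments in every setting, so 1 member higher in each is built in. Without LDHA the main fit had 2 higher in SCNT4c-KG and 0 in SCNT4c-TDG. No share of all features is given beside these counts. With 1 library left out or under the other settings, the members higher in SCNT4c-KG numbered 2 to 4. With 1 library left out, those lower there numbered 0 to 1, and those higher or lower in SCNT4c-TDG each 1 to 2. Those higher in SCNT8c then numbered 0 to 2, those lower in SCNT4c-TDG than in SCNT4c-KG 0 to 3 and those lower in PFF 0 to 1. Members higher in SCNT4c-TDG numbered 2 with a pseudocount of 10, a minimum mean of 50 or edgeR, 3 with quantile normalization, equal library totals, DESeq2 or the 2 groups alone, and 4 with the sum of each locus. Without a fold limit 2 were lower. In SCNT8c, edgeR and DESeq2 each had 1 higher.

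Between the treatments, 1 was higher and 2 were lower with a pseudocount of 10, 1 was higher with DESeq2, and 0 were lower with quantile normalization, the same total or edgeR. With SCNT4c-TDG and SCNT4c-KG alone, 1 was higher and 3 were lower, with or without the replicate block. The same-numbered libraries of these groups correlated at 0.003 to 0.033 in their deviations, and 1 of 3 correlated best with its own number, so the numbers were not taken as pairs. With SCNT4c no paired analysis was possible because its labels number the samples in conflicting ways. Summed by locus, 3 members were lower in PFF, among them PGK1 (-4.30), and PGK1 changed to 0.59 between the treatments.

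The other reversals were among values that passed no test. LDHB in SCNT4c-KG was -0.095 with quantile normalization, and GAPDH differed by 0.077 between the treatments with the same total. HK1 between the treatments was 0.14 with quantile normalization, 0.28 with the same total, 0.19 with edgeR, 0.18 with DESeq2 and -0.78 to 0.56 with 1 library left out. PKM in SCNT8c was 0.10 with quantile normalization. With 1 library left out, PKM in SCNT8c was -0.81 to 0.20, GAPDH in SCNT8c -0.0023 to 1.44 and ALDOA in SCNT4c-TDG -0.058 to 0.49. The LDHA to LDHB ratio in SCNT8c was -0.16 with a pseudocount of 10, -0.30 with the sum of each locus and -0.18 to 0.81 with 1 library left out. The HK2 to HK1 ratio was 0.037 in SCNT4c-KG with a pseudocount of 10, and -0.71 to 0.15 in SCNT4c-KG and -1.06 to 0.15 in SCNT4c-TDG with 1 library left out.

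Scaling moved the median log2 change of all features, from -0.30 to between -0.38 and -0.09 in SCNT4c-KG, from -0.26 to between -0.09 and 0.003 in SCNT4c-TDG, from -0.31 to between -0.25 and 0.07 in SCNT8c, from -0.02 to as high as 0.32 between the treatments, and from -0.07 to as low as -1.01 in PFF. LDHA in SCNT4c and SCNT8c, ENO1, TPI1, and PGK1 and PKM in the embryos rest on few reads. The cause of the low counts was not tested. On simulated reads limma missed most changes, large ones among them. Far fewer genes changed there than in the data, so that rate of missed changes does not carry over. A change that did not pass may still be present.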

Other observations

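In the pentose phosphate list, which makes NADPH and ribose phosphate, 6 tested genes had a mean of at least 10 in every embryo group. SCNT4c-TDG had 3 of them lower (17.6% of all features) and SCNT4c-KG had 1 higher (17.6%). RPIA, the isomerase of ribose 5-phosphate, had a mean normalized signal of 33267 ± 20098 (SD, n = 3) in SCNT4c, 25138 ± 4012 in SCNT4c-KG and 5456 ± 336 in SCNT4c-TDG. TKT, the transketolase, had 11135 ± 4240, 20968 ± 3599 and 2072 ± 236 in the same groups, and differed by -3.33 ± 0.42 on the log2 scale (SCNT4c-TDG minus SCNT4c-KG; limma adjusted p = 0.000159). These 2 genes were chosen after their values were seen. TALDO1, the transaldolase, reached the minimum mean only through SCNT4c-KG and is left out of these counts. It had a mean of 0.79 in SCNT4c and 111 ± 76.4 in SCNT4c-KG.

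Among 8 tested genes of hexose and lactate transport, 1 was higher in SCNT4c-KG and 2 were lower in SCNT4c-TDG, where 17.6% of all features passed in each of these directions. BSG, the partner protein of lactate transporters, was also chosen after its values were seen. It rose from 1827 ± 410 in SCNT4c to 4215 ± 605 in SCNT4c-KG (limma adjusted p = 0.0178) and fell to 729 ± 227 in SCNT4c-TDG (limma adjusted p = 0.0112), and the treatments differed by -2.57 ± 0.37 on the log2 scale (SCNT4c-TDG minus SCNT4c-KG; limma adjusted p = 0.000377). The glucose transporter SLC2A3, chosen in the same way, had 1194 ± 48.7, 1034 ± 370 and 1516 ± 222 and passed the test in neither treatment.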
